A study of Carassius gibelio with 4 samples.

Results

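Among the well-expressed transcripts of gibel carp liver, levels on a fishmeal diet were compared between a library of strain F and a library of strain A. The comparison covers 1033 gene IDs of the 56011 in the tables. Of these, 1011 had a mean of 100 FPKM or more over the strain A fishmeal, strain A rapeseed meal and strain F rapeseed meal libraries. The remaining 22 were added because they stood at 100 FPKM or more in both strain F libraries. The level limit was set because the strain F fishmeal library is far shallower than the others. FPKM is a count of sequenced fragments scaled to transcript length and to the number of fragments mapped in the library.

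Gibel carp (Carassius gibelio) is a farmed polyploid cyprinid, and many of its females reproduce by gynogenesis, in which sperm triggers development without adding its genes, so that lineages are passed on almost as clones. Polyploidy leaves many genes in near-identical copies, and the reads of such copies are hard to assign to 1 ID. Liver makes most plasma proteins and handles the amino acids, fats and sugars that arrive from the gut, and in carps exocrine pancreas is scattered through the liver tissue. Fishmeal is the classic protein source of fish feeds, and rapeseed meal is a plant source used in its place.

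The libraries used here were liver of strain F on the fishmeal diet, strain A on the fishmeal diet, strain F on the rapeseed meal diet and strain A on the rapeseed meal diet, each taken 8 hours after the last feeding. There was 1 library for each, and the labels give neither the age of the fish nor how many went into a library. Differences between 2 libraries therefore have no replicate check, no p-value is given, and differences are described by size, with 2-fold as the limit. Folds are differences of log2(FPKM + 1), strain F over strain A. In bulk liver, fewer cells of a type and less RNA per cell cannot be told apart. The IDs are labels of an assembly, such as c8588_g1, that the deposited tables leave without gene names, and 0 of them matched the RefSeq gene table of the carGib1.2-hapl.c assembly. No gene can be named here, liver markers could not be looked up, and gene functions are not reported.

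The strain F fishmeal library listed 19015 IDs above 0, against 47201 in the strain A fishmeal library, 47839 in strain F on rapeseed meal and 44906 in strain A on rapeseed meal. A relative depth was estimated from 2486 weakly expressed IDs whose levels in the other 3 libraries stood at simple multiples of each other. By this estimate 1 read of the strain F fishmeal library was worth 54.4 times as much as 1 read of the others. It could not be checked, as absolute depth is unknown. That ratio rests on the largest cluster of values, 83 of the 192 such IDs that were above 0 in the strain F fishmeal library. The deposited values also carry 1 constant factor per library, read from the spacing of low values, of 0.705 and 0.993 for strain F and strain A on fishmeal and of 1.07 and 1.34 for strain F and strain A on rapeseed meal. The way these factors were set was not given in the sources used here. Their ratio shifts each log2 fold of strain F over strain A by -0.49 in the fishmeal pair and by -0.32 in the rapeseed meal pair, apart from the pseudocount.

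On the deposited scale most well-expressed IDs stood somewhat lower in strain F on fishmeal. Their median level was 157 FPKM in strain F (quartiles 84.9 and 417), against 215 FPKM in strain A (quartiles 126 and 548). The median log2 fold was -0.56, with quartiles of -0.90 and -0.12, and 823 IDs were lower in strain F by any amount while 210 were higher. With the library factors divided out the median was -0.07 (quartiles -0.41 and 0.38). The general shift is thus close to the one the factors add, and which scale is right cannot be read from the data. Over all 35517 IDs of mean level 1 or more the median log2 fold on fishmeal was -0.80 on the deposited scale.

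In strain F on fishmeal 54 of the 1033 IDs stood 2-fold or more above strain A and 212 stood 2-fold or more below it. These are 5.23% and 20.5% of them, against 15.7% and 45.5% of all 35517 IDs of mean level 1 or more. That background includes many weak IDs listed at 0 in the shallow library. The split followed the scale. Without the factors 100 IDs were higher and 97 lower, and with folds centred on the median of the 1033 IDs 113 were higher and 91 lower. The share of higher IDs among those past 2-fold was 20.3%, 50.8% and 55.4% on these 3 scales. The number past 2-fold in either direction was 266 on the deposited scale and 197 and 204 on the others. A count of 212 lower IDs is therefore in large part a statement about the scale, while about 19.1% to 25.8% of the IDs differed by 2-fold or more whichever scale was used.

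**Figure D1:**
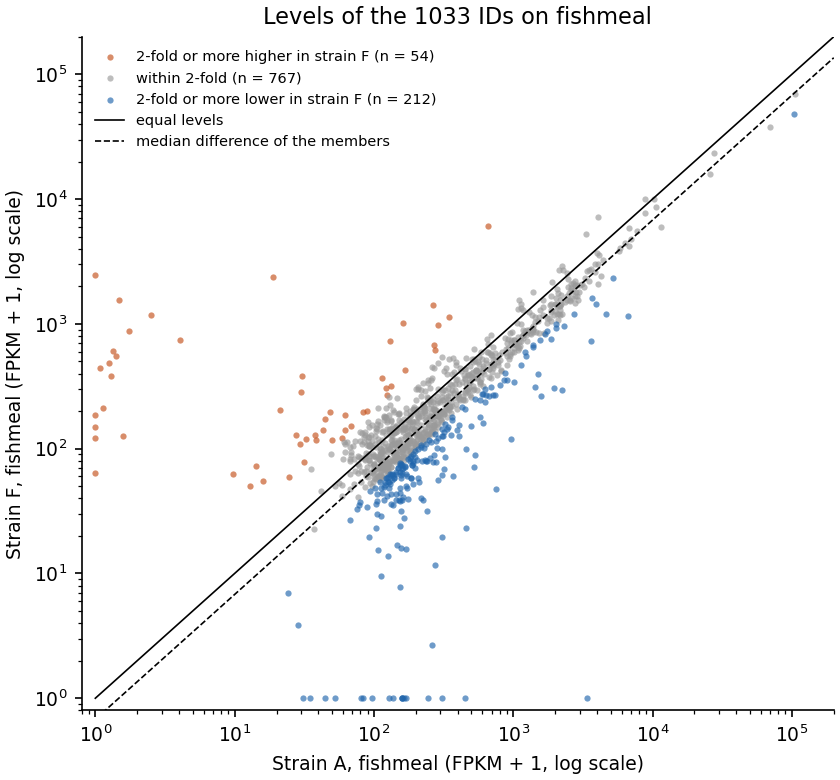
Level of each of the 1033 IDs in strain F (vertical) against strain A (horizontal) on fishmeal, in FPKM + 1 on log axes, with 1 library per strain. Most points lie along the dashed line of the median difference (log2 fold -0.56), 54 IDs lie 2-fold or more above equality and 212 below it, and the points along the bottom edge are the 18 IDs listed at 0 in strain F.

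**Figure D2:**
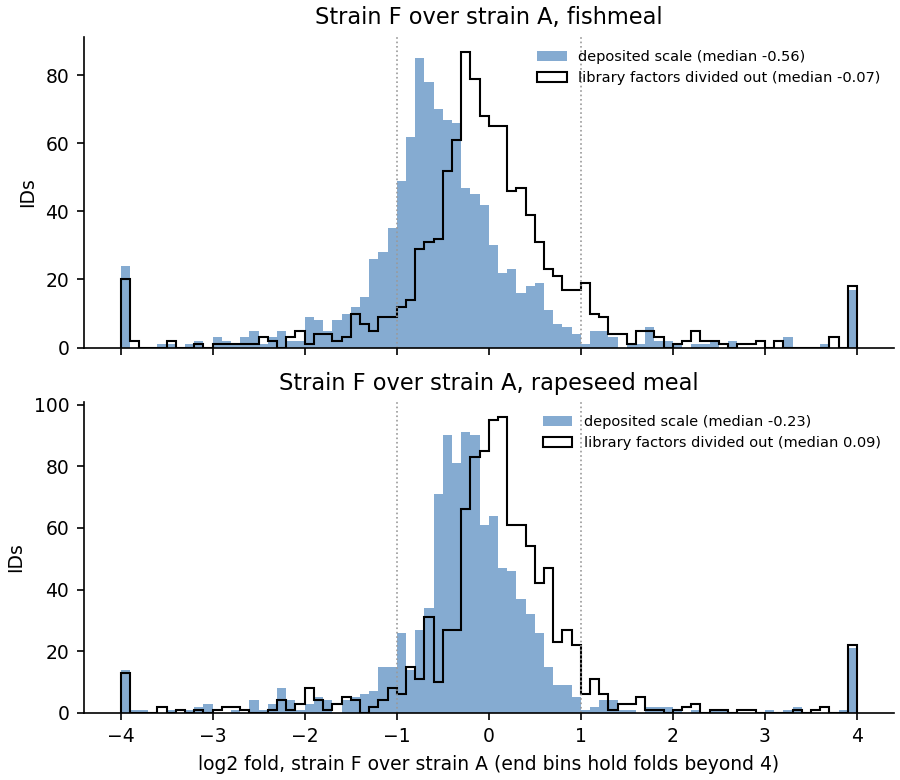
Number of IDs by log2 fold of strain F over strain A on fishmeal (upper panel) and rapeseed meal (lower panel), on the deposited scale (filled) and with the library factors divided out (line). On fishmeal the middle of the distribution lies at -0.56 on the deposited scale and at -0.07 without the factors. The dotted lines mark 2-fold.

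The way the IDs were chosen fixes part of these counts. The 22 IDs added through the strain F libraries had to be high in strain F, and 17 of them were 2-fold higher there on fishmeal and 0 lower. They make up 17 of the 54 higher IDs, and the 1011 chosen on the mean of 3 libraries gave 37 higher and 212 lower. An ID that reached the mean through a high strain A fishmeal value tends in turn to stand lower in strain F. When IDs were chosen on the 2 rapeseed meal libraries alone, so that neither fishmeal library entered, 47 were higher and 206 lower among 1032. Just inside the limit on the mean stood c33191_g2, with a mean of 100.11 FPKM and levels of 90.0 FPKM in strain F and 98.1 FPKM in strain A on fishmeal. Just outside stood c31314_g1, with a mean of 99.99 FPKM and 48.2 FPKM in strain F against 98.6 FPKM in strain A on fishmeal. Among the 22 IDs added through the strain F libraries, that limit was met most narrowly by c30957_g1, at 486 FPKM on fishmeal and 102 FPKM on rapeseed meal, and of the IDs left out it was missed most narrowly by c38001_g2, at 174 and 98.9 FPKM in the same order.

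How far a fold on fishmeal can be trusted was gauged from IDs that did not differ among the deep libraries. In 470 IDs the 3 other libraries differed among themselves by no more than 1.5-fold. The strain F fishmeal library stood at a median log2 difference of -0.73 from their mean, with quartiles of -0.93 and -0.49. The library factors, 0.705 here against 0.993, 1.07 and 1.34 in the others, lower this difference on the deposited scale. At a mean of 100 to 300 FPKM the SD of this difference over 267 IDs was 0.71. That SD is widened by 2 IDs listed at 0 in the strain F fishmeal library. The SD was 0.36 over 110 IDs at 300 to 1000 FPKM and 0.21 over 93 IDs at 1000 FPKM or more. Those 2 classes held 0 IDs listed at 0. The quartiles, little moved by 2 IDs, were -0.98 and -0.39, -0.88 and -0.51, and -0.83 and -0.59 in the same order. On the deposited scale 87 of the 470 IDs (18.5%) lay 2-fold or more away from that mean, and 62 of the 267 (23.2%) at 100 to 300 FPKM. Measured from their own median, 13 of the 470 IDs (2.77%) lay 2-fold or more away, 10 of them below. By level these were 11 of the 267, 2 of the 110 and 0 of the 93. The spread in the shallow library thus narrowed with level. The depth of a library and a strain F response to fishmeal cannot be told apart in this spread.

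**Figure D3:**
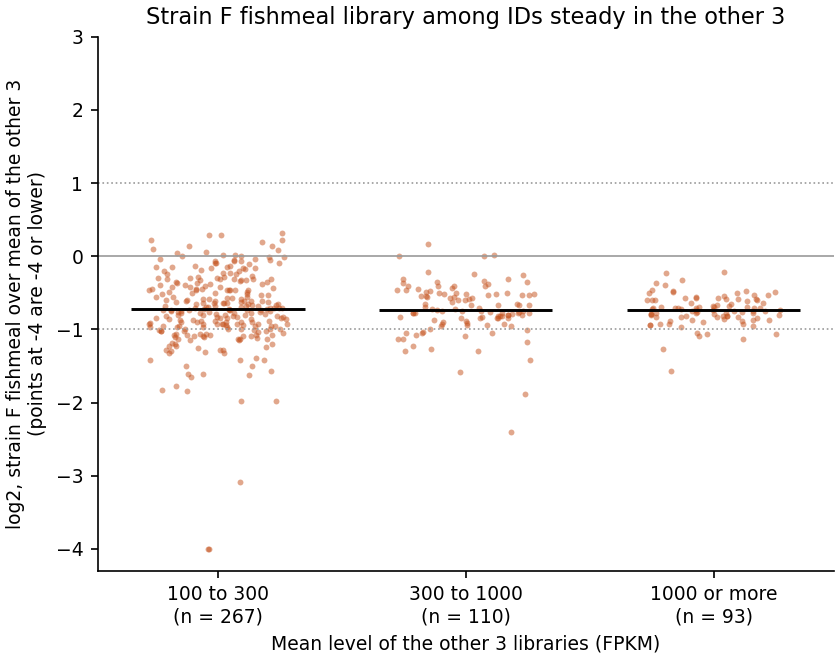
Log2 of the strain F fishmeal level over the mean of the other 3 libraries for the 470 IDs that are within 1.5-fold of each other in those 3, in 3 classes of mean level. Each point is 1 ID and each bar the median of its class, at -0.73, -0.74 and -0.74. The points draw together as the level rises, with SDs of 0.71, 0.36 and 0.21. The SD of 0.71 is widened by 2 IDs listed at 0 in strain F on fishmeal.

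The steadiest IDs show what agreement over the 4 libraries looked like on the deposited scale. c23523_g2 stood at 524 FPKM in strain F and 503 FPKM in strain A on fishmeal, and at 542 FPKM in strain F and 522 FPKM in strain A on rapeseed meal. Its highest level was 1.08 times its lowest. c31158_g1 ranged over 1.09 times, with 129 FPKM in strain F and 132 FPKM in strain A on fishmeal. With the factors divided out, the log2 folds of strain F over strain A on fishmeal were 0.55 for c23523_g2 and 0.46 for c31158_g1. Their steadiness thus depends on the scale. On the deposited scale, 448 of the 1033 IDs were within 1.5-fold on fishmeal, and 369 were within 1.5-fold on both diets.

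IDs past 2-fold on fishmeal occurred at all levels, in a larger share at lower levels. The scatter of the shallow library also widened toward lower levels, and its part in this was not tested. Levels were classed by the mean of the 2 rapeseed meal libraries, which take no part in the fishmeal contrast. At 1000 FPKM or more, 4 of 204 IDs were 2-fold higher and 31 lower, with a median log2 fold of -0.54. At 300 to 1000 FPKM 10 of 262 were higher and 46 lower (median -0.50). At 100 to 300 FPKM 29 of 518 were higher and 116 lower (median -0.60). The 49 IDs under 100 FPKM on rapeseed meal held 11 higher and 19 lower. An ID of that class could enter only through a high strain A fishmeal level or through the strain F libraries. Its counts in both directions thus follow in part from the choice of IDs. With the factors divided out the splits in the same order of classes were 7 higher and 15 lower, 24 and 17, 56 and 53, and 13 and 12. At 1000 FPKM or more lower IDs thus outnumbered higher ones on either scale, with 15 against 7 without the factors.

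The most abundant IDs were taken as those with a mean of 1000 FPKM or more over the 4 libraries. Those named here, with the largest fishmeal differences, differed in the same direction on rapeseed meal. That mean includes the rapeseed meal libraries, so this was in part fixed by the choice. Without strain F on rapeseed meal c36017_g1 would not have reached it, nor c21365_g1 and c31047_g2 without strain A there. By rapeseed meal mean at 1000 FPKM or more, 2 of 4 higher IDs and 16 of 31 lower IDs repeated at 2-fold. c36017_g1 stood at 2366 FPKM in strain F and 18.0 FPKM in strain A on fishmeal, and at 2675 FPKM in strain F and 15.2 FPKM in strain A on rapeseed meal. Its log2 folds were 6.96 and 7.37, and on the deposited scale the diet made little difference within either strain. With strain A this low, c36017_g1 could enter only through a high strain F level on rapeseed meal. c27973_g1, far above background in both strains, had 6103 FPKM in strain F and 657 FPKM in strain A on fishmeal. On rapeseed meal it had 9468 FPKM in strain F and 546 FPKM in strain A (log2 folds 3.21 and 4.11). In the other direction c21365_g1 was listed at 0 in strain F and at 3409 FPKM in strain A on fishmeal, and stood at 107 FPKM in strain F and 9168 FPKM in strain A on rapeseed meal. c31047_g2 had 46.9 FPKM in strain F and 749 FPKM in strain A on fishmeal, and 1319 FPKM in strain F and 6422 FPKM in strain A on rapeseed meal (log2 folds -3.97 and -2.28). For c36017_g1 and c27973_g1 the strains formed separate ranges over both diets, whereas c31047_g2 was higher in strain F on rapeseed meal than in strain A on fishmeal.

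The rapeseed meal pair holds 2 other libraries and is the one place where a strain difference on fishmeal could be looked up again, although both of its libraries helped choose the IDs. On rapeseed meal 49 of the 1033 IDs were 2-fold higher and 109 lower in strain F. These are 4.74% and 10.6%, against 11.1% and 12.5% of all IDs of mean level 1 or more. A difference of 2-fold in the same direction on both diets was seen in 34 higher IDs (3.29%) and 69 lower IDs (6.68%), against 3.69% and 9.71% of all IDs. The 34 are 63.0% of the higher IDs on fishmeal and 69.4% of those on rapeseed meal. The 69 are 32.5% of the lower IDs on fishmeal and 63.3% of those on rapeseed meal. Over all 35517 IDs of mean level 1 or more, 1312 were higher on both diets, out of 5570 on fishmeal and 3931 on rapeseed meal. Lower on both were 3447, out of 16158 on fishmeal and 4425 on rapeseed meal. Of the 34, 16 came from the 22 IDs added through the strain F libraries, which were required to be high in strain F on both diets. The 69 lower IDs all met the limit on the mean. That mean holds both strain A libraries but only the rapeseed meal library of strain F, so it favours IDs high in strain A. Without the factors the numbers on both diets were 47 higher and 46 lower, which is 47.0% and 47.4% of the fishmeal lists and 64.4% and 64.8% of the rapeseed meal lists. Across the 1033 IDs the folds on the 2 diets had a Pearson r of 0.79 and a Spearman rho of 0.49, a description across IDs that are not independent.

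**Figure D4:**
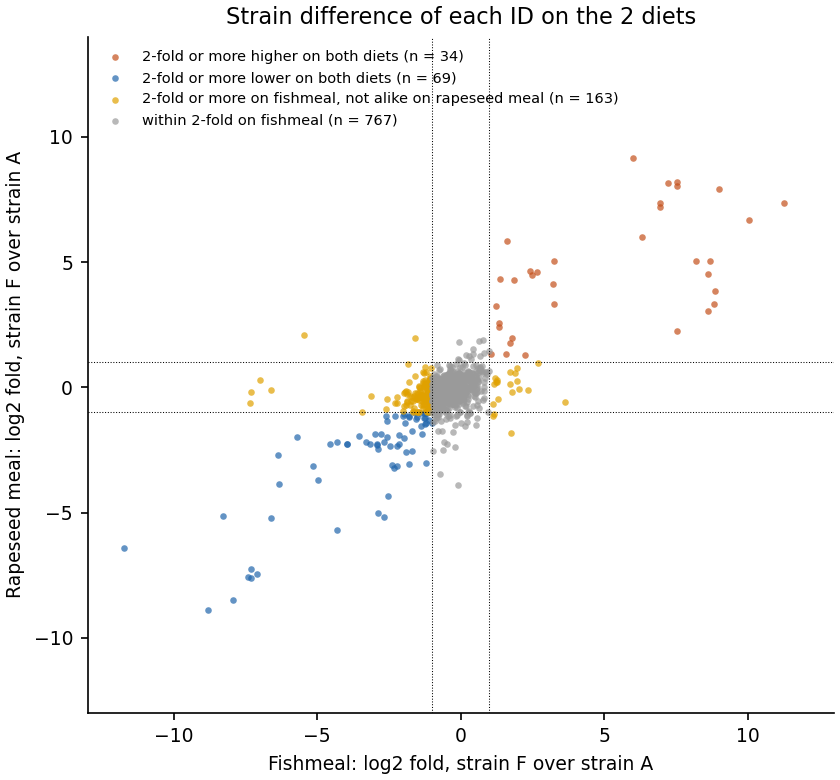
Log2 fold of strain F over strain A for each of the 1033 IDs on fishmeal (horizontal) and rapeseed meal (vertical), from 2 pairs of libraries with none in common. The 34 IDs 2-fold higher on both diets reach the far upper right, the 69 lower on both the lower left, and IDs with a fishmeal difference alone form the band to the left of -1 and right of 1 near the middle. Dotted lines mark 2-fold.

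The IDs that differed most on both diets were near or at 0 in 1 strain. c8588_g1 stood at 882 FPKM in strain F and 0.735 FPKM in strain A on fishmeal, and at 242 FPKM in strain F and a listed 0 in strain A on rapeseed meal. c26076_g1 stood at 212 FPKM in strain F and 0.139 FPKM in strain A on fishmeal, and at 361 FPKM in strain F and 0.374 FPKM in strain A on rapeseed meal. Both were thus above 200 FPKM in strain F and under 1 FPKM in strain A whatever the diet. For c8588_g1 a level of 100 FPKM or more in both strain F libraries was required, since it entered through them. For c26076_g1, under 1 FPKM in strain A, a high strain F level on rapeseed meal was required. In the other direction c33007_g1 was listed at 0 in both strain F libraries, with 447 FPKM in strain A on fishmeal and 481 FPKM in strain A on rapeseed meal. Both strain F libraries likewise listed c35651_g6 at 0, against 242 and 362 FPKM in strain A on fishmeal and on rapeseed meal. With strain F at 0, c33007_g1 and c35651_g6 could enter only through high strain A levels.

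Such near-complete differences were counted among the 1033 IDs only, and their share among all IDs was not taken. In 7 of the 1033 IDs both strain A libraries were under 1 FPKM and both strain F libraries above 50 FPKM, with 62.5 to 882 FPKM in strain F and 0 to 0.735 FPKM in strain A on fishmeal. Of these 7, 5 had entered through the strain F libraries. c26076_g1 and c29712_g1 reached the limit on the mean only through strain F on rapeseed meal, at 361 and 567 FPKM. A high strain F level on rapeseed meal was thus required of the whole set. In 6 IDs both strain F libraries were under 1 FPKM and both strain A libraries above 50 FPKM. They were listed at 0 in strain F on fishmeal, where the strain A levels were 136 to 447 FPKM. On rapeseed meal they stood at 0 to 0.278 FPKM in strain F, a deep library, and at 172 to 481 FPKM in strain A. With strain F this low, they could reach the limit on the mean only through high strain A levels. Their levels in strain A differed little between the diets, with log2 folds of rapeseed meal over fishmeal from 0.11 to 0.58. The limits of 1 and 50 FPKM were chosen after the values were seen. Whether the transcript is missing in a strain or its reads went to another copy of the gene was not tested.

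Zeros in the shallow library need the deep one beside them. On fishmeal 18 of the 1033 IDs were listed at 0 in strain F and 5 in strain A. Of the 18, 5 were also listed at 0 in strain F on rapeseed meal, and 10 stood above 50 FPKM there. Among these 18, a listed 0 for strain F on fishmeal thus often went with a sizeable level in the other strain F library. They could enter only through the mean that holds strain F on rapeseed meal. A high level in that library was thus favoured by the choice of IDs. The same share was not taken among all IDs. c32500_g3 and c43908_g1 were the highest of the IDs listed at 0 in strain A on fishmeal, with 2474 and 186 FPKM in strain F. On rapeseed meal c32500_g3 had 669.5 FPKM in strain F and 3.10 FPKM in strain A, and c43908_g1 had 293 FPKM in strain F and again a listed 0 in strain A. Like c8588_g1, c43908_g1 had entered through the strain F libraries. c32500_g3, near 0 in strain A, needed a high strain F level on rapeseed meal to enter.

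Among the 1009 IDs above 0 in all 4 libraries no fold rests on a listed 0. Where a level is near 1 FPKM the fold still depends on the pseudocount. With 0.1 and 10 in place of 1, the log2 fold on fishmeal was 11.41 and 7.21 for c32500_g2. For c38711_g1 it was 9.5 and 6.68. c32500_g2 had the largest higher fold, with 1539 FPKM in strain F and 0.467 FPKM in strain A on fishmeal (log2 fold 10.04), and with 419 FPKM in strain F and 3.06 FPKM in strain A on rapeseed meal (log2 fold 6.69). It belongs to the same assembly component as c32500_g3, so the 2 are not independent. Both had at most 3.10 FPKM in strain A, so a high strain F level on rapeseed meal was required for them to enter. c38711_g1 followed, with 1175 FPKM in strain F and 1.52 FPKM in strain A on fishmeal (log2 fold 8.87). This ID had entered through the strain F libraries, so its level there had to be high. On rapeseed meal c38711_g1 had 258 FPKM in strain F and 16.8 FPKM in strain A (log2 fold 3.86). Both IDs were lower on rapeseed meal than on fishmeal in strain F and higher on rapeseed meal than on fishmeal in strain A, so the strains lay closer together on rapeseed meal.

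At the other end c33907_g1 stood at 1.68 FPKM in strain F and 261 FPKM in strain A on fishmeal (log2 fold -6.61). With pseudocounts of 0.1 and 10 this fold was -7.2 and -4.54. On rapeseed meal c33907_g1 had 11.6 FPKM in strain F and 471 FPKM in strain A (log2 fold -5.23). c33007_g2 had 10.7 FPKM in strain F and 273 FPKM in strain A on fishmeal (log2 fold -4.55), and 67.0 FPKM in strain F and 329.8 FPKM in strain A on rapeseed meal (log2 fold -2.28). In each pair strain F was lower, with the wider gap on fishmeal. With strain F this low on rapeseed meal, c33907_g1 and c33007_g2 could enter only through high strain A levels. A lower strain F was thus favoured by the choice of IDs. The wider gap of c33907_g1 rests on 1.68 FPKM in the shallow library.

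**Figure D5:**
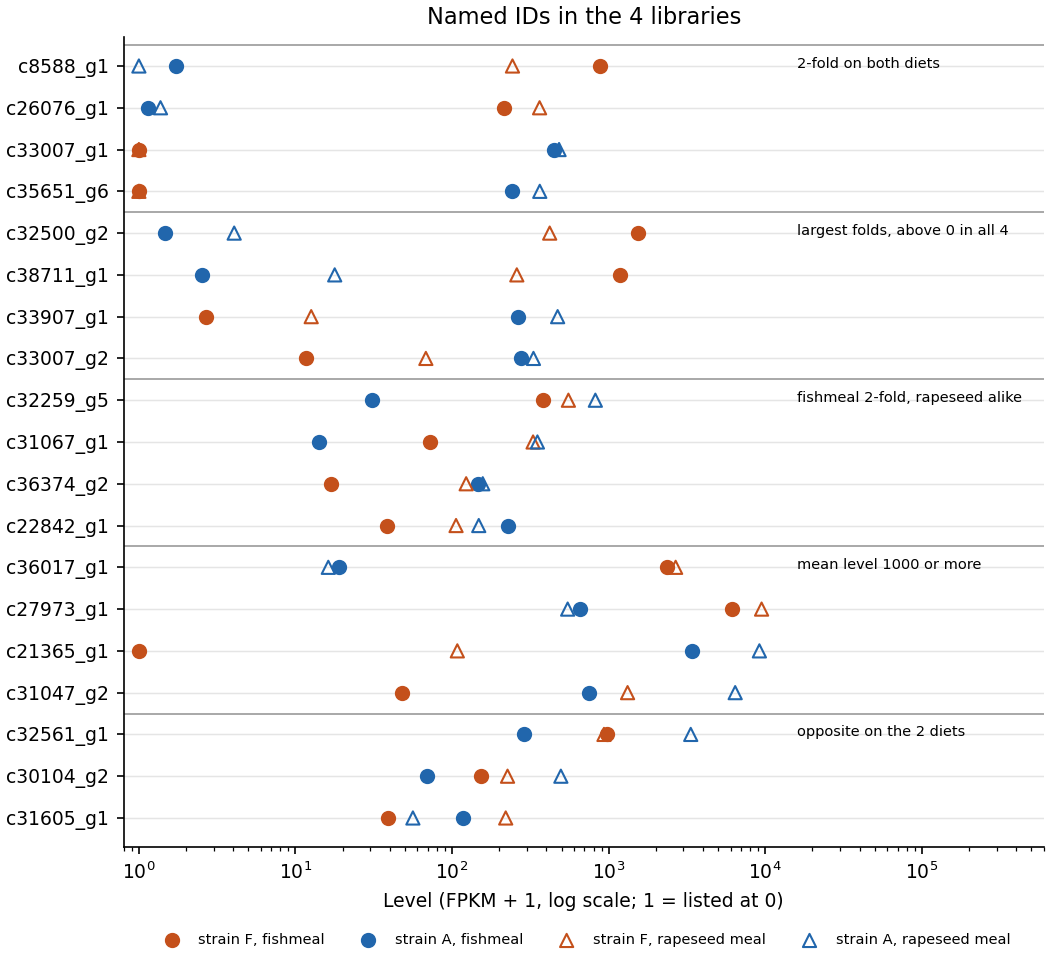
Levels of the named IDs in strain F (orange) and strain A (blue), on fishmeal (filled circles) and rapeseed meal (open triangles), in FPKM + 1 on a log axis where 1 means listed at 0. Each marker is 1 library. In the upper sets the colours separate whatever the diet. In the third set the fishmeal circles are apart while the rapeseed meal triangles lie within 1.5-fold, and in the last set the order of the strains turns over between the diets.

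Of the 54 IDs 2-fold higher on fishmeal, 21 were at least 8-fold higher. At least 8-fold lower were 29 of the 1033 IDs. The same shares were not taken among all IDs of mean level 1 or more. The 21 higher IDs fell into sets by how strain F behaved on the 2 diets. The sets were drawn after the values were seen and have no test. In 9 of the 21 strain F was at least 2-fold lower on rapeseed meal than on fishmeal. These 9, c32500_g2, c32500_g3 and c38711_g1 among them, had 445 to 2474 FPKM in strain F and 0 to 3.03 FPKM in strain A on fishmeal. On rapeseed meal they had 102 to 669.5 FPKM in strain F and 0 to 45.9 FPKM in strain A. Within strain F their log2 folds of rapeseed meal over fishmeal ran from -2.24 to -1.76. Of the 9, 7 had entered through the strain F libraries, so 100 FPKM or more on rapeseed meal was required of them. Together with the 2-fold cut, this limited how far the folds could spread. c32500_g2 and c32500_g3 also share a component. Near 0 in strain A, they likewise needed a high strain F level on rapeseed meal to enter. In 11 of the 21 strain F was within 2-fold between the diets, as in c36017_g1 and c27973_g1, with 121 to 6103 FPKM on fishmeal and 108 to 9468 FPKM on rapeseed meal in strain F. The remaining ID, c29712_g1, was higher on rapeseed meal, at 567 FPKM against 62.5 FPKM on fishmeal in strain F, while both strain A libraries listed it at 0. In the whole set of 21, strain F levels were thus at least 2-fold lower on rapeseed meal in some IDs. In others they differed by less than 2-fold between the diets, with log2 folds of rapeseed meal over fishmeal from -0.21 to 0.95.

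Other sets differed between the diets in strain A as well. Of the 69 IDs lower in strain F on both diets, 21 were at least 4-fold higher on rapeseed meal than on fishmeal in strain A, c31047_g2 among them. In these 21 both strains stood higher on rapeseed meal, with a median log2 fold of rapeseed meal over fishmeal of 3.93 in strain F and 3.22 in strain A. The value in strain A follows from how the set was drawn, so it is no separate result. The value in strain F is not free of the choice either. Strain F had to be low on fishmeal, which raises it, and below strain A on rapeseed meal, which lowers it. The lowest strain F level on fishmeal was a listed 0 in the shallow library. The library factors of strain F, 0.705 on fishmeal and 1.07 on rapeseed meal, also raise its value on the deposited scale. A high strain A level on rapeseed meal also helped these IDs to reach the limit on the mean. Their median level on fishmeal was 18.8 FPKM in strain F and 126 FPKM in strain A. On rapeseed meal it was 273 FPKM in strain F and 1118 FPKM in strain A. Of the 34 IDs higher in strain F on both diets, 7 were at least 4-fold lower on rapeseed meal than on fishmeal in strain A. Their median level on fishmeal was 677 FPKM in strain F and 160.0 FPKM in strain A, and on rapeseed meal 368 FPKM in strain F and 20.4 FPKM in strain A. In that set the gap between the strains was wider on rapeseed meal, as the median log2 fold was 1.61 on fishmeal and 4.47 on rapeseed meal. The choice of IDs 4-fold or more lower in strain A on rapeseed meal itself widens the gap there, so it is no separate result. Comparisons of the diet within a strain share libraries with the strain comparison, so these values are given side by side only. Both sets were drawn after the values were seen.

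A further group differed on fishmeal alone. Of the 54 higher IDs 13 (24.1%) were within 1.5-fold on rapeseed meal, and of the 212 lower IDs 99 (46.7%). Both shares were below that of all 1033 IDs, of which 722 (69.9%) were within 1.5-fold there. The same shares were not taken among all IDs of mean level 1 or more. Which fishmeal library was apart differed between the 2 directions. Set against the mean of the rapeseed meal pair, the 13 higher IDs had a median log2 difference of -0.81 in strain F and -2.74 in strain A on fishmeal. The strain A library alone was 2-fold away in 6 of them, both libraries in 5, neither in 2 and the strain F library alone in 0. The 99 lower IDs had a median of -1.29 in strain F and 0.02 in strain A on fishmeal. There the shallow strain F library alone was 2-fold away in 73, both in 5, the strain A library alone in 2 and neither in 19. With the factors divided out there were 32 such lower IDs, 12 of them with the strain F library alone apart, while the higher ones numbered 28, 12 of them with the strain A library alone apart. The number of such lower IDs thus depended on the scale. The shallow depth of the strain F library moves with the lower set, and its part in it was not tested.

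Among the fishmeal differences that were not seen on rapeseed meal, and leaving out IDs listed at 0 on fishmeal, c32259_g5 had the largest higher fold, with 379 FPKM in strain F and 29.6 FPKM in strain A on fishmeal (log2 fold 3.64). On rapeseed meal it had 552 FPKM in strain F and 821 FPKM in strain A (log2 fold -0.57), so strain A on fishmeal was the low library. c31067_g1 had 71.1 FPKM in strain F and 13.2 FPKM in strain A on fishmeal (log2 fold 2.34), and 328 and 349.7 FPKM in strain F and strain A on rapeseed meal. Both fishmeal libraries of c31067_g1 were low, with strain A the lower. In the other direction c36374_g2 had 15.8 FPKM in strain F and 145 FPKM in strain A on fishmeal (log2 fold -3.12), and 122 and 156 FPKM in strain F and strain A on rapeseed meal. c22842_g1 had 37.5 FPKM in strain F and 226 FPKM in strain A on fishmeal (log2 fold -2.56), and 105 and 147 FPKM in strain F and strain A on rapeseed meal. For c36374_g2 the strain F fishmeal library was the low one and the other 3 were close to each other.

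An opposite strain difference on the 2 diets was seen in 5 IDs. The share among all IDs of mean level 1 or more was not counted, so whether 5 is unusual is not known. Of the 54 higher IDs 3 were 2-fold lower in strain F on rapeseed meal, and of the 212 lower IDs 2 were 2-fold higher. c32561_g1 stood at 981 FPKM in strain F and 288 FPKM in strain A on fishmeal, and at 932 FPKM in strain F and 3340 FPKM in strain A on rapeseed meal (log2 folds 1.77 and -1.84). On the deposited scale its level in strain F was nearly the same on both diets. Strain A lay below that level on fishmeal and above it on rapeseed meal. With the factors divided out 3 of the 5 stayed past 2-fold on both diets, and c30104_g2 and c31265_g4 did not, at log2 folds of -0.81 and -0.75 on rapeseed meal. c30104_g2 followed the same order as c32561_g1, with 151 FPKM in strain F and 68.0 FPKM in strain A on fishmeal, and 225 FPKM in strain F and 494 FPKM in strain A on rapeseed meal. The reverse order was seen in c31605_g1, with 38.0 FPKM in strain F and 117 FPKM in strain A on fishmeal, and 219 FPKM in strain F and 55.2 FPKM in strain A on rapeseed meal (log2 folds -1.59 and 1.97). The other members of this group, named because they complete it, were c31265_g4 and c29712_g2. c31265_g4 had 139.6 FPKM in strain F and 61.4 FPKM in strain A on fishmeal, and 327 FPKM in strain F and 687 FPKM in strain A on rapeseed meal. On fishmeal c29712_g2 was listed at 0 in strain F and at 43.4 FPKM in strain A, and on rapeseed meal it had 294 FPKM in strain F and 68.5 FPKM in strain A.

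The number after c in an ID appears to name a component of the assembly, whose IDs may share sequence and reads. The 1033 IDs came from 937 components, of which 84 held 2 or more of them, 180 IDs in all. In 46 of the 84 no ID was 2-fold apart on fishmeal. In 7 every ID was 2-fold apart in the same direction, higher in the 2 components c26076 and c32500 and lower in 5. In 30 some IDs were 2-fold apart and others were not, and in 1 component, c29712, a 2-fold higher and a 2-fold lower ID occurred together. The median range of log2 folds within a component was 0.66, and in 25 components it was 1 or more. The widest range between IDs above 0 in both fishmeal libraries was in component c32262. There c32262_g2 stood at 997 FPKM in strain F and 1139 FPKM in strain A on fishmeal (log2 fold -0.19), while c32262_g3 stood at 22.0 FPKM in strain F and 455 FPKM in strain A (log2 fold -4.31). On rapeseed meal c32262_g2 had 1429 FPKM in strain F and 1740 FPKM in strain A, and c32262_g3 had 7.95 FPKM in strain F and 464 FPKM in strain A. Within that component 1 ID was thus at like levels in both strains on either diet and the other was low in strain F on both. With 7.95 FPKM in strain F on rapeseed meal, c32262_g3 could enter only through high strain A levels. The division of reads between IDs of a component was not given in the sources used here, so these values are uncertain as levels of single genes.

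In the summed level of a library the differing IDs weighed unequally. The 1033 IDs held 74.5% of the summed FPKM of strain F and 79.5% of that of strain A on fishmeal, including all of the top 100 IDs of each. The 54 higher IDs, chosen on this contrast, made up 3.39% of the sum in strain F and 0.328% in strain A on fishmeal. The 212 lower IDs made up 9.37% in strain F and 17.3% in strain A. On rapeseed meal the 54 held 2.26% in strain F and 0.686% in strain A, and the 212 held 12.1% in strain F and 21.2% in strain A. The shares on fishmeal follow from how the IDs were chosen, and the choice itself depends on the library factors.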

How the data were processed

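Each of the 4 libraries had 1 deposited table of values for 56011 gene IDs. Bowtie 1.0.1 and RSEM 1.2.17 are named without a role per the submitters' processing notes, while the reference was not given in the sources used here. RNA came from frozen liver by Trizol extraction, per the labels' protocols. No source states the unit, but the deposited numbers have the spacing and totals of FPKM of 2 decimals that were multiplied by 1 factor per library. Absolute depth is unknown, so counting intervals cannot be given.

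Folds were differences of log2(FPKM + 1), which understate changes of low IDs. With 1 library per group no test was run. The IDs named are at most 2 higher and 2 lower in each described set (largest fold, largest fold on both diets, on fishmeal alone, opposite on the diets, at a mean of 1000 FPKM or more, or listed at 0), the widest component, the steadiest IDs and those at the limits. The members, sets and limits were chosen with earlier results of these data known. Alternatives were the pseudocount (0.1 and 10), the library scale, the level limit (50, 200 or none), the libraries that choose IDs, zeros left out and a 3-fold limit. The counting of folds and the reading of factors were tested on simulated data. Python 3.11.15, numpy 2.4.6, pandas 2.3.3 and matplotlib 3.10.9 were used.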

Additional observations from a re-analysis of the deposited data

Results flagged for a closer look

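In 5 IDs the strain difference had opposite signs on the 2 diets, each past 2-fold, and the difference between the diets was not tested, since each combination of strain and diet is 1 library. How often such IDs occur among all IDs of mean level 1 or more was not counted. The log2 fold of strain F over strain A on fishmeal minus that on rapeseed meal was 3.61 for c32561_g1, 2.27 for c30104_g2, 2.24 for c31265_g4 and -3.56 for c31605_g1. With the library factors divided out, c30104_g2 and c31265_g4 were no longer 2-fold apart on rapeseed meal (log2 folds -0.81 and -0.75). For c29712_g2 the difference was -7.56, a value that depends on the pseudocount because the ID is listed at 0 in strain F on fishmeal.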

How the results depend on the processing

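No paired analysis was possible because each group has 1 library. Of 58 values of the 4 counts and the median under alternatives, 34 stayed close to the reported ones (counts within 1.5 times, the median within 0.1) and 24 did not. The median had 0 changes of sign, and counts cannot change sign. The balance of higher and lower IDs on fishmeal did turn over on other scales, as the next counts show. With the library factors divided out, 100 IDs were 2-fold higher and 97 lower on fishmeal, with a median log2 fold of -0.07. With folds centred on their median the counts were 113 and 91. Chosen on the rapeseed meal libraries alone and with the factors divided out, an alternative added after seeing the data, they were 93 and 92, with a median of -0.05 and 44 lower on both diets. At a level limit of 50, 108 were higher and 410 lower on fishmeal, and 61 and 120 on both diets. At a limit of 200, 29 were higher and 116 lower on fishmeal, and 17 higher on both. With no limit the numbers were 5665 and 23383 on fishmeal, 1320 and 4431 on both diets, and the median was -0.76. Other limits change both how many IDs enter and which, weak IDs of the shallow library included. A 3-fold limit left 89 lower on fishmeal and 44 lower on both diets. Without the IDs added through the strain F libraries, 18 were higher on both diets. Of the 27 members named by the rule, the 23 past 2-fold on fishmeal kept their direction and stayed past 2-fold in all 92 values under the 2 pseudocounts, the removed factors and the centring. The other 4 stayed within 2-fold, and 3 of them changed sign without the factors and with centring: c32262_g2 to 0.30 and 0.37, c33191_g2 to 0.37 and 0.44, and c31158_g1 to 0.46 and 0.53. Their size for IDs near 0 did depend on the pseudocount, as for c26076_g1, at 9.79 with 0.1 and 4.45 with 10 in place of 7.54. The shallow strain F fishmeal library limits every fold on fishmeal.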
